A study of Homo sapiens with 27 samples.

Results

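The nuclear RNA of U2OS cells, a human osteosarcoma line, was compared between cells that received the TPR shRNA 'TPR D' and cells that received the control shRNA. The comparison took the 3 libraries labelled TPR D nuclear and the 3 labelled control nuclear, 6 of the 27 libraries of the series. The other 21 are the cytoplasmic/ER and total libraries of the same shRNAs and all libraries of a different TPR shRNA, 'TPR A'. All cells, the control cells included, were infected with lentivirus that carried an shRNA. The control shRNA is a scrambled sequence, and no uninfected cells were analysed here. The nuclei were separated with detergent, and each library was made from poly(A)+ RNA. The deposited values are FPKM, which scale fragments to transcript length and sequencing depth, and cover 34464 genes. Of these, 14611 genes outside the mitochondrial genome had a mean above 1 FPKM over the 27 libraries and were tested, 12381 of them protein-coding and 1689 lncRNA genes. Changes are given as log2 differences of FPKM + 0.1, TPR D minus control, from limma on all 27 libraries, with p-values adjusted over the 14611 genes (Benjamini-Hochberg) and a threshold of 0.05. FPKM are shares of a library, so that the amount of RNA per nucleus was not measured, and fewer cells with an RNA and less of it per cell cannot be told apart.

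TPR is a long coiled-coil protein and the main component of the nuclear basket, the set of filaments on the inner face of the nuclear pore. mRNAs pass through the pore once export factors such as the TREX complex and the receptor Nxf1 have been loaded. The basket binds TREX2, another export complex, through its subunit GANP. The level of an mRNA in nuclear RNA depends on its synthesis, its decay in the nucleus and its exit, so that a nuclear level alone does not separate these. For this reason the changes of the genes that passed, and of some classes, were also set against those in total and cytoplasmic/ER RNA.

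TPR mRNA itself, whose gene lies at chr1:186280784-186344825 (GRCh37, minus strand), was at 28.1, 31.9 and 29.8 FPKM in the 3 control nuclear libraries and at 3.15, 1.71 and 2.65 FPKM with TPR D. The groups were far apart and did not overlap. TPR fell by 3.56 ± 0.36 (SE, n = 3 and 3) on the log2 scale, an 11.8-fold difference (limma adjusted p = 1.96e-05), and by 3.51 when control replicate 2 was left out. The exact permutation test (2-sided) of these 3 against 3 libraries gave p = 0.1, the smallest it can give. In total RNA TPR went from 26.4 ± 1.57 (SD, n = 3) to 4.66 ± 1.39 FPKM. In cytoplasmic/ER RNA it went from 2.96 ± 0.701 to 0.414 ± 0.198 FPKM (SD, n = 3).

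One of the 6 libraries stood apart. In control nuclear replicate 2, 21.8% of all FPKM fell on the 13 mRNA genes of the mitochondrial genome, against 0.774% to 1.58% in the other 5. Across genes, its profile was closer to the mean of the total libraries (Pearson r = 0.976) than to that of the other nuclear libraries (r = 0.944), whereas control replicates 1 and 3 were closer to the nuclear ones (r = 0.973 and 0.97 against 0.944 and 0.943). The lncRNA MALAT1, which stays in nuclear speckles, was at 83.6 FPKM in this library, at 22.1 and 40.1 FPKM in the other controls, and at 19, 20.8 and 39.3 FPKM with TPR D. NEAT1, the scaffold of paraspeckles, was at 21.7, 69.7 and 67.1 FPKM in the controls and at 38.4, 43.2 and 60.6 FPKM with TPR D. Neither lncRNA passed the test (adjusted p = 0.834 and 0.999). The difference between TPR D and control also took on the shape of a fraction difference through this library. Across the 14611 genes, its correlation with the nuclear minus total profile of TPR A cells was 0.613 when TPR D was set against control replicate 2 alone. It was -0.0926 against replicate 1 and -0.0749 against replicate 3. These correlations run across genes, which are not independent replicates. The comparison was therefore repeated without control culture 2, that is without its nuclear, cytoplasmic/ER and total library. Named genes that did not pass there are given as such, except for some in the comparison with TPR A.

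The cell type markers matched an osteosarcoma line. VIM (vimentin) was at 1113 to 2662 FPKM in the 6 libraries, SPARC (osteonectin) at 326 to 749 and the bone transcription factor gene RUNX2 at 9.23 to 18.7, and all 3 were lowest in control replicate 2. COL1A2 was under 1 FPKM. Of 6 epithelial markers only EPCAM (3.51 to 5.14 FPKM) and CLDN4 (2.12 to 11.2 FPKM) were above 1 FPKM in every library. Of 6 blood cell markers only CD68, a lysosomal protein gene that is not particular to blood, was above 1 FPKM throughout, at 3.27 to 8.64 FPKM in the controls and 11.9 to 16.1 FPKM with TPR D (adjusted p = 0.174). The summed FPKM of the blood cell list was 4.54 to 10 in the controls and 13.1 to 17 with TPR D, nearly all of it from CD68, while PTPRC stayed under 0.5 FPKM, and the part of other cells in any result was not tested. The value of 1 read was 0.0165 to 0.0219 FPKM on 1 kb of effective transcript, so the 6 libraries were read to a like depth.

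In nuclear RNA 32 genes rose and 38 fell with TPR D. These are 0.219% and 0.26% of the 14611 genes. With an unadjusted p under 0.05, the counts were 652 in the upward (4.46%) and 682 in the downward direction (4.67%). The genes that rose had a median of 1.95 FPKM in control and 6.83 FPKM in TPR D nuclei and changes of 0.85 to 4.63 (median 1.54, log2). Of them 28 were protein-coding and 4 lncRNA genes. The genes that fell had a median of 15.9 FPKM in control and 5.87 FPKM in TPR D nuclei and changes of -0.66 to -3.56 (median -1.19, log2). Of them 37 were protein-coding, and 1 had no entry in the annotation. The genes that rose had a median of 4 exons and those that fell a median of 8, beside 7 for all protein-coding genes tested, and the median pre-mRNA lengths were 13.5, 26.9 and 22.9 kb. The sets are unlike, since the genes that rose include the 4 lncRNA genes and the protein-coding genes do not. In each of the 70 genes the 3 TPR D libraries lay on one side of the 3 controls. Over all genes tested such a separation was seen upwards in 7.02% and downwards in 8.34%. The 70 genes were picked by a test on these same libraries, which favours separated groups, so the separation is no further support for them.

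The lowest p among the genes that rose was that of DUSP2 (chr2:96808908-96811179, GRCh37, minus strand), which encodes a nuclear phosphatase that switches off MAP kinases. It was at 26.3, 21.1 and 28.5 FPKM in control and 88, 66.9 and 75.7 FPKM in TPR D nuclei. The groups did not overlap, and the change was 1.61 ± 0.23 (log2, SE, adjusted p = 0.0027). RBM15 (chr1:110881128-110889303, plus strand), whose product binds RNA as part of the m6A methylation machinery and can contact Nxf1, was at 6.87, 7.28 and 5.72 FPKM in control and 17.6, 18.5 and 15.4 FPKM in TPR D nuclei. Its spread within each group was small beside the change of 1.37 ± 0.21 (adjusted p = 0.00338). CXorf38 (chrX:40486173-40506813, minus strand) was at 6.17, 6.13 and 5.53 against 11.9, 12.1 and 10.1 FPKM, a change of 0.93 ± 0.15 (adjusted p = 0.00498).

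Next came SNCG, the gene of gamma-synuclein, with a change of 1.69, and PPP1R3B-DT, a lncRNA gene that starts beside PPP1R3B, with 1.31 (adjusted p = 0.00656 and 0.00664). S100A2, a calcium-binding protein gene, was by far the most abundant of the genes that rose, at 352, 182 and 299 FPKM in control and 692, 1015 and 730.4 FPKM in TPR D nuclei. Its change was 1.59 ± 0.29, and it was 1.32 without control culture 2 (adjusted p = 0.0126 and 0.0657). TNFSF13, the gene of the cytokine APRIL, rose by 1.88, and AOPEP, an aminopeptidase gene, by 1.05. PRSS23, a serine protease gene, was at 0.116, 0.127 and 0.714 FPKM in control and 3.09, 1.78 and 5.44 FPKM in TPR D nuclei. Its change of 3.23 came down to 1.69 with a pseudocount of 1 in place of 0.1. SLC2A14, a glucose transporter gene with a near-identical neighbour in SLC2A3, rose by 1.87, and since reads can be split between the pair this value is uncertain. SLCO2A1, which encodes a prostaglandin transporter, rose by 1.82, HRCT1 by 1.55 and the antisense lncRNA MMP20-AS1 by 2.46. When control culture 2 was left out, TNFSF13 (1.66), PRSS23 (2.94), SLC2A14 (1.48), SLCO2A1 (1.45), HRCT1 (1.24) and MMP20-AS1 (2.05) no longer passed (limma adjusted p = 0.053 to 0.0881). The libraries were made with a kit that keeps strand, but whether strand was used in counting is not given in the sources used here. If it was not, reads of an antisense gene and of its partner may be mixed.

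Of the genes that fell, LASP1 (chr17:37026112-37078023, plus strand), which encodes a LIM and SH3 protein of the actin cytoskeleton, had the lowest p after TPR. It was at 148, 115 and 150 FPKM in control and 53.7, 44.9 and 36 FPKM in TPR D nuclei. The change was -1.61 ± 0.24 (log2, SE, adjusted p = 0.0027). DNM1L (chr12:32832134-32898584, plus strand), the gene of the GTPase that divides mitochondria, was at 106, 130 and 84 FPKM against 38.1, 33.3 and 30.1 FPKM, a change of -1.63 ± 0.25 (adjusted p = 0.00338). COX10 (chr17:13972807-14135053, plus strand), which makes the heme of cytochrome c oxidase, fell by 1.37 ± 0.2 on the log2 scale, from 6.62, 10.6 and 6.58 to 3.47, 2.48 and 2.87 FPKM. GLUD1, the mitochondrial glutamate dehydrogenase gene, was at 78.8, 68.9 and 104 FPKM in control and at 39.9, 39 and 39.1 FPKM with TPR D. The TPR D libraries were nearly equal, and the change was -1.06 ± 0.17 (adjusted p = 0.00338).

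The other named genes that fell cover several roles. F2RL2, a receptor gene of the thrombin receptor family, changed most after TPR, by -2.14. MROH6 changed by -1.64 and PLEKHH1 by -1.54. IMPA2, an inositol monophosphatase gene, changed by -1.42, SMARCD1, which encodes a subunit of the SWI/SNF chromatin remodelling complexes, by -1.25, and CNRIP1, whose product binds a cannabinoid receptor, by -1.27. TSPYL4 changed by -1.24 and SH3KBP1, an adaptor of receptor endocytosis, by -0.98. XPO7 encodes exportin 7, which carries proteins out of the nucleus, and was at 30.4, 39.6 and 24.6 FPKM in control and 15, 12.7 and 12.6 FPKM in TPR D nuclei (-1.20 ± 0.23, adjusted p = 0.0129). NUP160, a scaffold nucleoporin of the Y complex, was at 29.2, 22.9 and 31.4 FPKM against 16.7, 13.8 and 15.6 FPKM (-0.84 ± 0.18, adjusted p = 0.0402). TNPO2, an importin gene chosen here after its values were seen, changed by -0.93 (adjusted p = 0.044). In the fit without control culture 2, XPO7 (-1.01), CNRIP1 (-1.02) and TNPO2 (-0.96) no longer passed (limma adjusted p = 0.0657, 0.0874 and 0.0874).

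**Figure D1:**
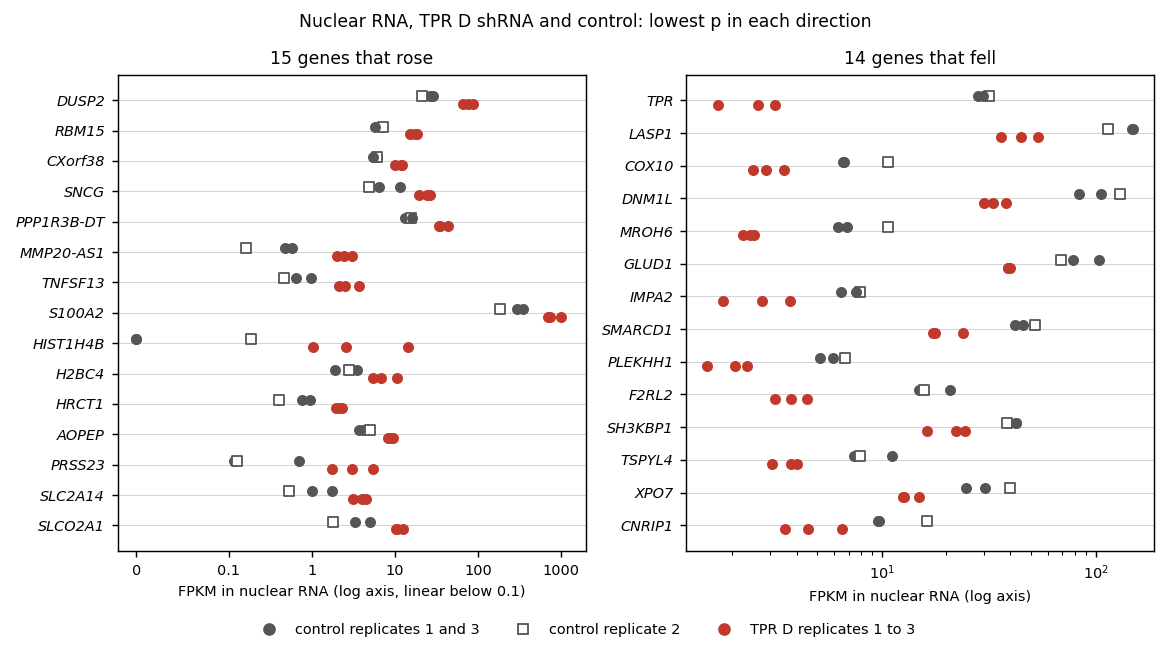
FPKM in nuclear RNA (log axes) of 15 genes that rose (left) and 14 that fell (right), from those with the lowest p in each direction, with 1 point for each library. Control replicate 2 is the open square, and in each gene the 3 TPR D points (red) lie on one side of all 3 control points.

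Most of these changes were not particular to the nucleus. Of the 32 genes that rose in nuclear RNA, 31 had a positive change in total RNA and 30 in cytoplasmic/ER RNA, with medians of 1.10 and 1.25. Of the 38 that fell, all 38 had negative changes in total and in cytoplasmic/ER RNA, with medians of -1.05 and -1.12. The fractions came from the same cells, so these are not independent repeats. Of the 14611 genes tested, 46 rose and 64 fell past the threshold in total RNA. In cytoplasmic/ER RNA 31 rose and 53 fell. Among the genes that rose in nuclear RNA, 14 passed upward in total and 15 in cytoplasmic/ER RNA. Among those that fell in nuclear RNA, 25 and 29 passed downward. DUSP2, for example, went from 25.6 ± 6.58 to 63.9 ± 23.3 FPKM in total RNA (SD, n = 3) and from 42.6 ± 5.19 to 99.2 ± 7.48 FPKM in cytoplasmic/ER RNA. LASP1 went from 134 ± 38.9 to 35.9 ± 3.49 FPKM in total RNA and from 183 ± 15.5 to 62.2 ± 14.8 FPKM in cytoplasmic/ER RNA.

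Passed in nuclear RNA and in neither of the other fractions were 12 of the 32 genes that rose and 5 of the 38 that fell. A gene that passes in one fraction only is not thereby shown to differ between fractions, so the difference itself was tested. No gene passed the test of its nuclear against its total change (limma, 0 of 14611 genes, lowest adjusted p = 0.955, 101 upward and 139 downward with an unadjusted p under 0.05). None passed that of its nuclear against its cytoplasmic/ER change (limma, 0 genes, lowest adjusted p = 1, 82 upward and 38 downward with an unadjusted p under 0.05). The median SE of these differences was 0.42 on the log2 scale, against 0.3 for a change within a fraction. The model held no term for the culture, so fractions of the same cells were treated as independent and their pairing was not used. A count of 0 therefore does not show that no gene differed between fractions. Without control culture 2 the count against total RNA was 1 gene, GAGE2E, and that against cytoplasmic/ER RNA was 0.

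The values closest to a change in the nucleus alone were those of 2 histone H4 genes and a lncRNA gene, given here as values that did not pass. H4C8 was at 1.79, 2.05 and 2.21 FPKM in control and 18.2, 4.39 and 5.33 FPKM in TPR D nuclei. In total RNA it was at 3.35 ± 0.912 and 3.18 ± 0.099 FPKM, and in cytoplasmic/ER RNA at 7.74 ± 2.73 and 4.56 ± 1.28 FPKM (SD, n = 3). Its nuclear change of 1.86 thus stood beside changes of 0.04 in total and -0.72 in cytoplasmic/ER RNA. HIST1H4B had changes of 4.63, 0.03 and -0.41 in the same order. The lncRNA gene ENSG00000254485 (chr3:9334272-9404987, minus strand) had 3.06, -0.38 and 0.38, and its nuclear FPKM were 0.665, 4.39 and 0.45 in control against 6.78, 14.1 and 11.1 with TPR D. Its highest control was replicate 2, and its total control libraries were at 6.03 ± 0.87 FPKM. CYTL1, a secreted protein gene, had 0.79, -0.43 and -0.56, and ERP29, a chaperone gene of the endoplasmic reticulum, 0.24, -0.85 and -0.35. The largest values in the other direction lay with lncRNA genes, such as STX18-AS1 with -0.62 in nuclear and 0.76 in total RNA, and TRHDE-AS1 with -0.51 and 1.27.

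**Figure D2:**
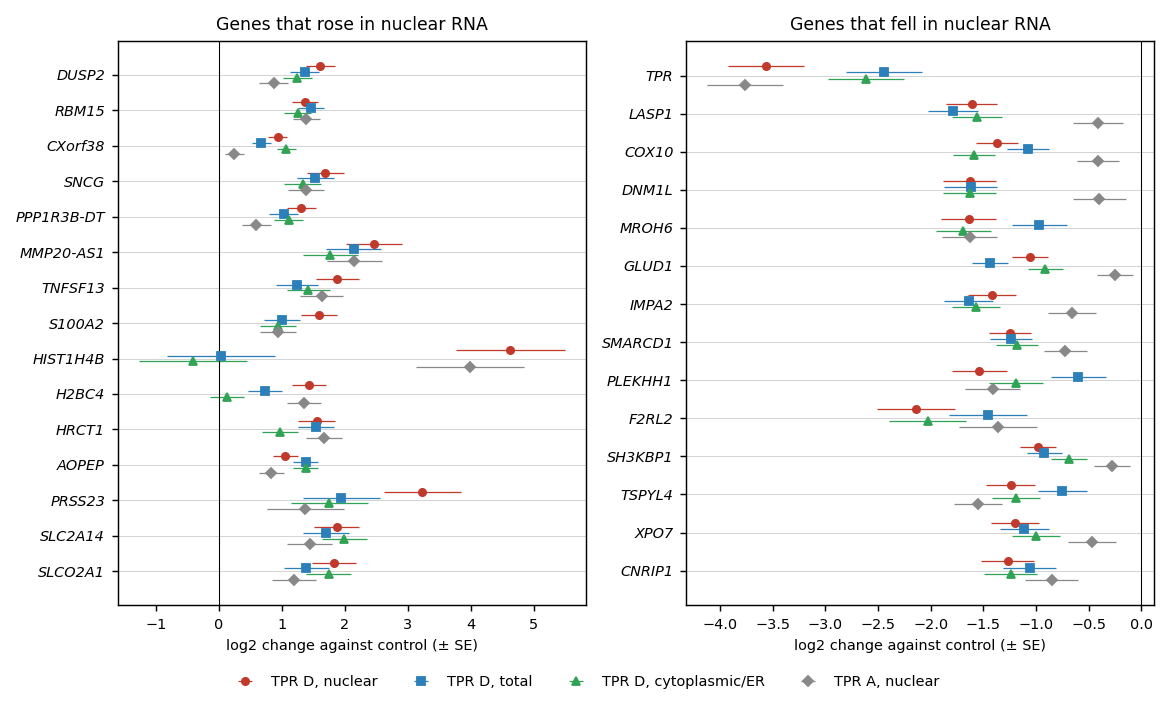
log2 change against control (± SE) of the same 29 genes with TPR D in nuclear, total and cytoplasmic/ER RNA and with TPR A in nuclear RNA. The TPR D fractions mostly lie together, HIST1H4B and H2BC4 being furthest apart (4.63 and 1.43 in nuclear, -0.41 and 0.12 in cytoplasmic/ER RNA), while LASP1 and DNM1L are near -1.6 with TPR D (-1.61 and -1.63) and at -0.41 and -0.40 with TPR A in nuclear RNA.

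Replication-dependent histone genes supply the histones of S phase. Most have 1 exon, and their mRNAs end in a stem-loop in place of a poly(A) tail, with the exception of longer polyadenylated forms. The libraries were poly(A)+ selected, so that the reads are those of the part that passed this step. Of 34 such genes in the data, 23 were tested, and in the annotated transcripts (GENCODE 44 on GRCh37) all 23 held the stem-loop. The histone stem-loop consensus of 16 bases, searched on the transcript strand, was found in 26 of 12333 protein-coding genes tested (0.211%), of which 3 were outside the histone class. The ends of the 4 genes that rose are shown with the stem-loop in capitals, as DNA, 5′ to 3′, because the stem-loop is the end by which these mRNAs are known.

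HIST1H4B: ccaatGGCCCTTTTCAGGGCCgccca

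H4C8: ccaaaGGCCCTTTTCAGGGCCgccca

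H2BC4: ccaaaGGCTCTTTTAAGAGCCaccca

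H2BC5: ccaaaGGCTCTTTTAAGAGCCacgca

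The capitals lie at chr6:26027129-26027144 (minus strand), chr6:26285359-26285374 (minus), chr6:26123700-26123715 (minus) and chr6:26158815-26158830 (plus) of GRCh37, 5 bases before the end of the transcript in each. The 2 H4 genes share 1 form of the stem-loop and the 2 H2B genes another, and the class as a whole has 5 forms. In 7 of the 23 genes, H2BC4 and H2BC5 among them, an annotated transcript runs on beyond the stem-loop or lacks it. The median nuclear change was 1.11 in these 7 and 1.75 in the other 16.

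All 23 histone genes had a positive nuclear change, with a median of 1.21, beside -0.01 for all genes tested. Of the 23, 4 rose, none fell, and 17 were higher at an unadjusted p under 0.05 (73.9%, against 4.46% of all genes). In 14 of the 23 (60.9%) the 3 TPR D libraries lay above the 3 controls, against 7.02% of all genes. The class was singled out by the study in these same libraries, so its direction is not independent evidence. The median was 0.51 in total RNA and 0.15 in cytoplasmic/ER RNA of TPR D cells. Relative to each gene's mean over the 9 nuclear libraries, the class median was -0.64, -1.17 and -0.79 in the controls and 0.88, 0.7 and -0.11 with TPR D. TPR D replicate 3 was thus the lowest of its group, though above each control.

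Among single histone genes, H2BC4 was at 3.49, 2.8 and 1.92 FPKM in control and 10.5, 6.89 and 5.41 FPKM in TPR D nuclei, a change of 1.43 ± 0.27 (adjusted p = 0.0126). H2BC5 was at 11, 9.57 and 19.7 FPKM against 27.1, 27.1 and 28 FPKM, a change of 1.11 ± 0.23 (adjusted p = 0.0282). H4C8 changed by 1.86 ± 0.38 (adjusted p = 0.0226), with TPR D replicate 1 well above replicates 2 and 3. HIST1H4B was listed at 0 in control replicates 1 and 3 and at 0.186 FPKM in replicate 2, and at 14.5, 2.59 and 1.03 FPKM with TPR D. Its transcript of 357 nt is short beside a fragment, and these values correspond to about 1.07 reads in the control and 103, 15 and 6.4 reads with TPR D. The fitted change of 4.63 therefore depends on the pseudocount and was 2.18 with a pseudocount of 1. H4 genes are alike in their coding sequence, so the share of reads that each received is uncertain.

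Histone genes that did not pass included some with larger changes. H1-4, a linker histone gene, was at 1.21, 0.525 and 0.382 FPKM in control and 22.6, 16.8 and 3.63 FPKM in TPR D nuclei (3.95 ± 0.95, adjusted p = 0.0638). H3C4 was at 2.94, 0.735 and 0.963 FPKM against 13.3, 11.5 and 3.55 FPKM (2.58 ± 0.61, adjusted p = 0.0583). The smallest change of the class was that of H2BC21, 0.12, with overlapping groups. Without control culture 2 the median of the class was 1.14, 2 genes rose (HIST1H4B and H2BC4) and 11 were higher at an unadjusted p under 0.05 (47.8%, against 3.96% of all genes). In the 6 fits that left out 1 nuclear library each, the class median was 1.08 to 1.62. The count of histone genes that passed was 0 without TPR D replicate 1, 1 without TPR D replicate 2 and 2 to 4 in the others. Without TPR D replicate 1 or 2, 9 histone genes were higher at an unadjusted p under 0.05 (limma), of 518 and 507 among all genes. Of all genes, 24 and 12 passed in either direction in these fits.

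**Figure D3:**
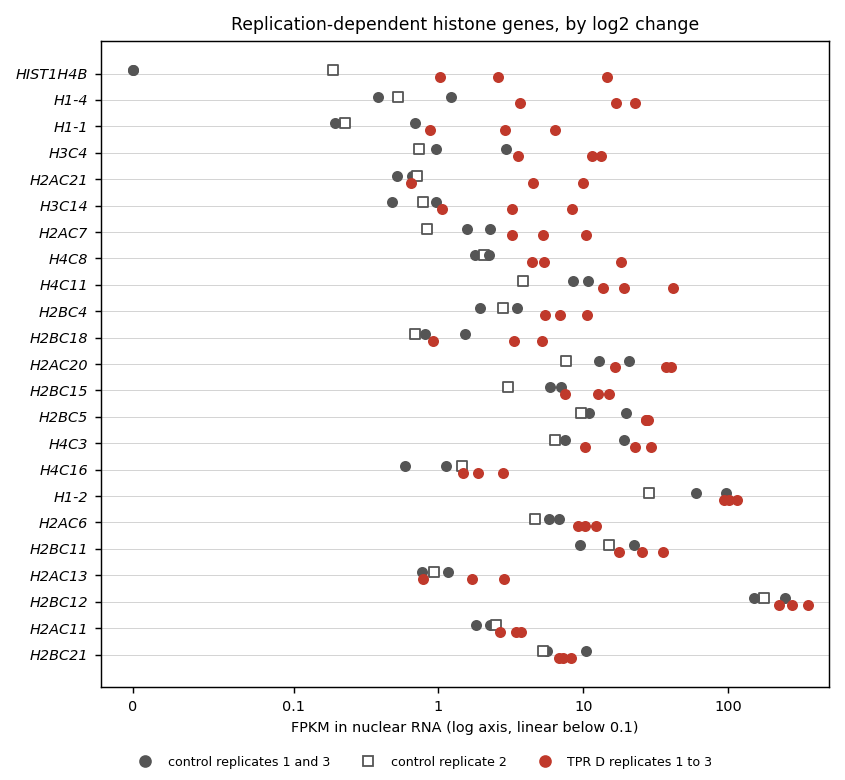
FPKM in nuclear RNA (log axis, linear below 0.1) of the 23 replication-dependent histone genes, 1 point for each library, ordered by their log2 change. In 14 genes all 3 TPR D points (red) lie to the right of all 3 control points, and H2BC21 at the foot of the plot has overlapping groups.

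Genes were also grouped by the number of exons, which counts the introns removed before export. The median nuclear change of protein-coding genes went from 0.12 for 201 genes with 1 exon and 0.09 for 1529 with 2 or 3 exons to 0.03, -0.04 and -0.15 for genes with 4 to 7, 8 to 15 and more than 15 exons. Of the 1771 genes with more than 15 exons, 127 were lower at an unadjusted p under 0.05 (7.17%, against 4.67% of all genes) and 22 higher (1.24%, against 4.46%). Of these genes 10 fell and 1 rose past the adjusted threshold, of 38 and 32 among all genes. Genes with 2 or 3 exons showed the opposite balance, with 147 higher (9.61%) and 51 lower (3.34%).

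The bins differed in how far they rested on control culture 2. Replication-dependent histone genes were not removed from the bins, so those with 1 exon are counted again among the genes with 1 exon. How many of the higher genes they supply is not given here. For genes with 1 exon, 26 of 201 were higher at an unadjusted p under 0.05 (12.9%, against 4.46%), and without control culture 2 19 were (9.45%, against 3.96%). Their median was -0.01 without it, and its nuclear value of -0.38, relative to each gene's mean, stood far from 0.03 and 0.05 in the other controls and 0 to 0.07 with TPR D. For genes with more than 15 exons the median was -0.17 without control culture 2, with 133 lower (7.51%) and 16 higher (0.903%) at an unadjusted p under 0.05, where all genes had 4.54% and 3.96%. The relative medians of this bin were 0.09, 0.06 and 0.16 in control and 0.02, -0.19 and 0.03 in TPR D nuclei. TPR D replicate 2 was the lowest. Without it the median was -0.08, and 63 genes were lower at an unadjusted p under 0.05 (of 438 among all genes). Past the adjusted threshold were 3 genes in place of 11, and among all genes 12 in place of 70. In total RNA the bin had a median of -0.15 and in cytoplasmic/ER RNA of 0.05.

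By pre-mRNA length the medians went from 0.08 under 10 kb through 0.01, -0.03, -0.09 and -0.09 to -0.13 above 300 kb. Without control culture 2 they lay between 0 and -0.10. In control replicate 2 the relative median was -0.26 under 10 kb and 0.18 at 100 to 300 kb, while the other controls and TPR D replicates 1 and 3 stayed between -0.04 and 0.07 in all 6 bins. TPR D replicate 2 leaned the other way, from 0.09 to -0.15. Without TPR D replicate 2 the medians went from 0.03 to -0.07.

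**Figure D4:**
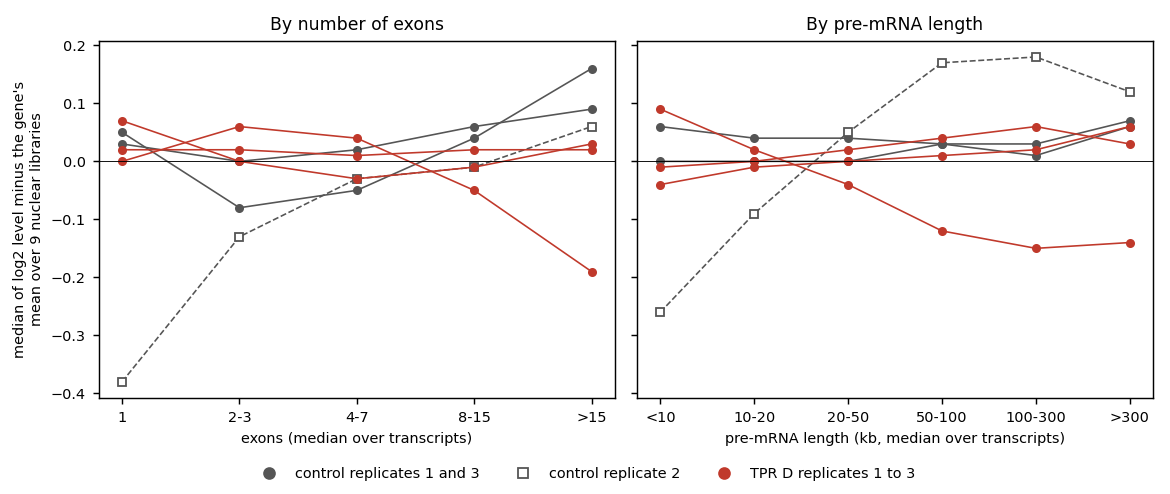
Median over protein-coding genes of the log2 level minus each gene's mean over the 9 nuclear libraries, by number of exons (left) and pre-mRNA length (right), 1 line for each library. Control replicate 2 (dashed) is low for genes with 1 exon (-0.38) and under 10 kb (-0.26), and TPR D replicate 2 is low for genes with more than 15 exons (-0.19).

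Among lncRNA genes 4 of 1689 rose and none fell (0.219% and 0.26% of all genes did so). The 4 were PPP1R3B-DT, MMP20-AS1, BAZ2B-AS1 and ENSG00000254485. The antisense genes among them, MMP20-AS1 and BAZ2B-AS1, no longer passed without control culture 2. The lncRNA median was 0.02, with 81 genes upward and 56 downward (4.8% and 3.32%) past an unadjusted p of 0.05, against 4.46% and 4.67% of all genes. The median without control culture 2 was 0.12 and the counts were 110 and 35 (6.51% and 2.07%, against 3.96% and 4.54%). Without control replicate 1 the balance turned, with a median of -0.06, 55 genes upward and 78 downward, where all genes had 703 and 688. ZNF genes, which encode zinc finger transcription factors, had a median of 0.14 over 409 genes, 33 of them upward and 6 downward with an unadjusted p under 0.05 (8.07% and 1.47%, against 4.46% and 4.67% of all genes) and none past the threshold. The 33 became 20 without TPR D replicate 2, 21 without control replicate 1 and 22 without TPR D replicate 3. Over all genes the 652 upward became 507, 703 and 483 in these fits. Their median was 0.18 without control culture 2. In total RNA the medians of ZNF and lncRNA genes were both 0.34, and 0.22 and 0.17 without that culture. Antisense lncRNA genes (355) and LINC genes (252) had medians of 0.01 and 0.03, and 0.12 and 0.15 without that culture, with control replicate 2 the highest of the 6 libraries for both classes. ZNF563, ZNF329 and ZNF543 had the lowest p of the class, with values of 0.99, 0.66 and 0.84 (adjusted p = 0.147 to 0.154).

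Ribosomal protein genes did not pass in either direction. The 84 cytosolic genes had a median of 0.19, and it was 0.13 without control culture 2, -0.09 without TPR D replicate 2 and 0.39 without TPR D replicate 3. In these libraries the relative median was 0.6 and -0.34, further apart than any pair of controls. The 76 mitochondrial ribosomal protein genes also had a median of 0.19 (0.12 without control culture 2), with none past the threshold. RPL38 had the lowest p of the cytosolic genes (0.82, adjusted p = 0.484). The cytosolic median was -0.04 in total and -0.24 in cytoplasmic/ER RNA, and 0.06 and -0.2 without control culture 2. Of the 25 SNHG genes and GAS5, which host snoRNAs in their introns, none passed, with a median of 0.26 (0.38 without control culture 2), and the lowest p was that of SNHG3 (1.07, adjusted p = 0.449). SNHG3 was at 219, 329 and 235 FPKM in control and 1525, 299.8 and 339.8 FPKM in TPR D nuclei, so that replicate 1 alone stood far above the controls.

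Of the nuclear basket, NUP153, NUP50 and ZC3HC1, the partners of TPR, had changes of -0.12, 0.01 and 0.09 (adjusted p = 0.932 to 0.998), and only TPR passed. Of 28 other nucleoporin genes 1 fell, NUP160, and the median was -0.05. Of 28 mRNA export factors none passed, with a median of 0.04. MCM3AP, the gene of GANP, had -0.61 (adjusted p = 0.397), CHTOP, a TREX subunit gene, 0.64, and NCBP1, of the cap-binding complex, -0.40. Of 7 nuclear lncRNAs none passed, and TUG1 had -0.98 (adjusted p = 0.516), with control replicate 2 the highest of the 6 libraries. In the 16 genes of SR splicing factors and CLK kinases none passed either (median 0.10), TRA2B having the lowest p with 0.52.

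Stress and growth lists were nearly without calls, and of all genes 0.219% rose and 0.26% fell. At that share a list of this size would hold few or no calls. A count of 0 is thus not a result about a list, here or for the nuclear pore, export and ribosomal protein genes. Of 23 genes of the integrated stress response driven by ATF4 1 fell, SHMT2, which encodes the mitochondrial serine hydroxymethyltransferase, at 172, 94.7 and 140 FPKM in control and 45.5, 54.1 and 36.8 FPKM in TPR D nuclei (-1.55 ± 0.32, adjusted p = 0.0273). CEBPG and VLDLR had -1.04 and 0.60 and did not pass, and in CEBPG control replicate 2 was at 20.1 FPKM, against 7.64 and 6.13 FPKM in the other controls. None passed among 26 p53 targets (BTG2 -0.47), of which 6 were lower at an unadjusted p under 0.05 without control culture 2 (23.1%, against 4.54% of all genes) and none with it. None passed among 17 genes of the unfolded protein response (CALR 0.36), 12 heat shock genes (HSPB1 0.60) and 16 NRF2 targets (HMOX1 0.82, TXNRD1 -0.63). None passed among 21 interferon-stimulated genes (IRF9 -0.93, OAS1 1.06), 13 genes of the inflammatory secretome (MMP3 1.43, CXCL8 -1.48) and 26 immediate-early genes (ID2 1.27, IER2 0.60, JUN 0.51).

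The same held for 27 genes of S phase and DNA replication (median -0.04) and 24 genes of G2 and mitosis (median -0.14, BUB1B -0.59). The S phase median was 0.13 without control replicate 1 and -0.22 without control replicate 3, and it was -0.46 in total RNA. None passed among 19 genes each of sterol synthesis (SC5D 0.74, MSMO1 0.88) and of matrix and collagen (LAMA4 1.94, adjusted p = 0.231), 16 of glycolysis (HK2 -0.73, ALDOC 1.05) and 30 of proteasome subunits (PSMB6 0.34). Several of these medians changed sign or size without control culture 2, whose library was low for them. The median of the matrix and collagen list went from 0.07 to -0.37, that of the interferon-stimulated list from 0.18 to -0.34, that of glycolysis from 0.04 to -0.25 and that of sterol synthesis from 0.26 to 0.03. The relative medians of control replicate 2 were -0.91, -0.92, -0.59 and -0.59 in these lists.

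Without control culture 2, 14 genes rose and 28 fell (0.0958% and 0.192% of all genes), with 578 and 663 at an unadjusted p under 0.05 (3.96% and 4.54%). Of the 70 genes called with all controls, 30 were called here too, 11 that rose and 19 that fell. All 70 had the same sign and an unadjusted p under 0.05. DUSP2, RBM15, CXorf38, SNCG, PPP1R3B-DT and AOPEP were among the 11, and TPR, LASP1, COX10, DNM1L, GLUD1 and IMPA2 among the 19. MUC1, a membrane mucin gene, had the second lowest p in this fit after TPR. It was at 13.4, 4.31 and 9.53 FPKM in control and 3.47, 2.1 and 2.81 FPKM in TPR D nuclei, and changed by -1.54 with and -1.99 without that culture (adjusted p = 0.0273 and 0.00394).

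A further 12 genes were called only in the fit without culture 2. SCRN2 was at 53.8, 21.6 and 67.8 FPKM in control and 26.2, 23.5 and 29.6 FPKM in TPR D nuclei, a change of -0.69 with and -1.18 without it (adjusted p = 0.446 and 0.0122). PLAU, the gene of urokinase, was at 124, 40 and 151 FPKM against 59.1, 65.2 and 70.4 FPKM (-0.48 and -1.06, adjusted p = 0.774 and 0.0293). TMEM158 and CSTF2, a cleavage stimulation factor gene, had -1.54 and -1.28 without it, and TP53INP2, an autophagy gene, -1.34. Of the genes that rose only here, EIF5A2, a translation factor gene, was at 7.57, 15.9 and 8.58 FPKM against 19.2, 20.3 and 17.7 FPKM (0.91 and 1.24, adjusted p = 0.232 and 0.0168). GPR157, a receptor gene, was at 8.61, 39.6 and 9.28 FPKM against 29.6, 18 and 30.3 FPKM, so that culture 2 was above all TPR D libraries. ENSG00000262202, a lncRNA gene at chr17:19015313-19015949 (minus strand), was listed at 0 in control replicate 1 and had 1.61 and 0.105 FPKM in the others, against 2.86, 6.09 and 2.67 FPKM.

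**Figure D5:**
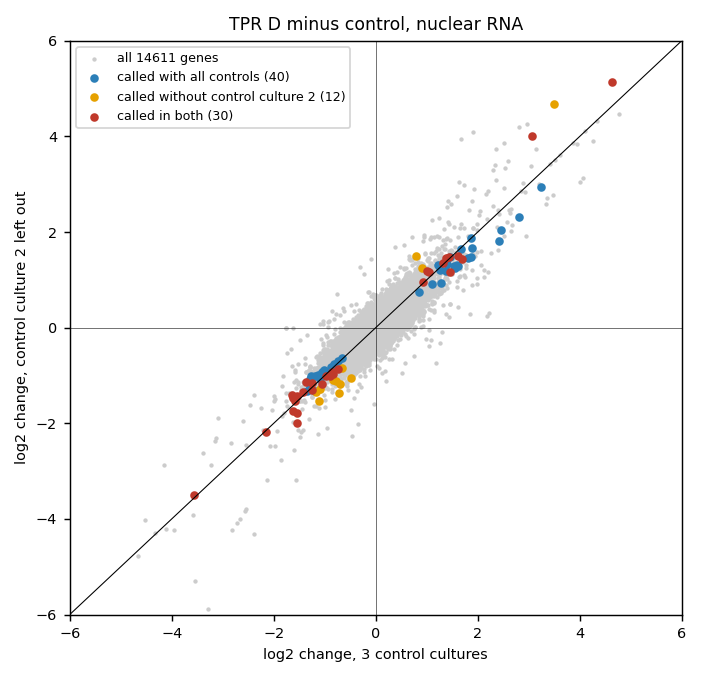
log2 change of nuclear RNA, TPR D minus control, of the 14611 genes with 3 control cultures (x axis) and with control culture 2 left out (y axis), with 1 gene outside the axes. Genes called in both fits (30, red) lie near the diagonal, 40 (blue) were called only with all controls and 12 (orange) only without culture 2.

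The TPR A shRNA targets the same mRNA and lowered it to a like level in nuclear RNA, 2.4, 1.64 and 2.35 FPKM. Both shRNAs were compared with the same controls, so the changes are given side by side. Of the 32 genes that rose with TPR D all had positive values with TPR A (median 1.27) and 15 passed. Of the 38 that fell, 32 had negative values with TPR A (median -0.48) and 7 passed. Among all 14611 genes tested, 84 rose and 48 fell past the threshold with TPR A in nuclear RNA. The direct test between the shRNAs, which uses no control library, found 46 genes, 13 higher (0.089%) and 33 lower (0.226%) with TPR D. None of the 32 genes that rose was among those higher with TPR D, while 11 of the 38 that fell were among those lower with TPR D. These 11 had been picked for low values in the same TPR D libraries, and their levels with TPR A are shown as a description. Among them were LASP1, COX10, DNM1L, GLUD1, SHMT2, SLC17A7, ACOT13, B4GALT4, SNX12 and EPOR, of which the last 4 are named here after their values were seen. Whether SLC17A7, ACOT13, B4GALT4, SNX12 and EPOR also fell past the threshold without control culture 2 is not given here.

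LASP1 was at 84.4, 120 and 107 FPKM in TPR A nuclei, above all 3 TPR D libraries and below 2 of the 3 controls. DNM1L was at 91.9, 73.4 and 74.1 FPKM with TPR A, and SHMT2 at 114, 181 and 152 FPKM, within or above the control range of 94.7 to 172 FPKM. Their changes with TPR A were -0.41, -0.40 and 0.16, with adjusted p = 0.514, 0.564 and 0.876. SLC17A7, a vesicular glutamate transporter gene, went in opposite directions, from 3.32, 2.82 and 4.44 FPKM in control to 1.28, 1.43 and 1.69 FPKM with TPR D and 8.19, 8.8 and 6.26 FPKM with TPR A (-1.19 and 1.13, adjusted p = 0.0414 and 0.0399). Histone genes did not separate the shRNAs, with class medians of 1.21 for TPR D and 1.35 for TPR A, and H2BC4 at 6.88, 6.86 and 6.97 FPKM with TPR A. For genes with more than 15 exons the median was -0.15 with each shRNA.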

How the data were processed

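Nuclear, cytoplasmic/ER and total poly(A)+ RNA of U2OS cells was sequenced after control, TPR A or TPR D shRNA, with 3 replicates each. The authors quantified reads with Salmon on protein-coding and lncRNA transcripts, summed transcripts to genes and deposited FPKM, with hg19 and DESeq2 also named in their processing notes. Read counts were not used here. Samples were grouped by their labels. The study's methods call the replicates biological, but neither they nor the labels say how the cultures were kept apart, so p-values measure the spread between these samples, which may be technical.

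Each library's FPKM were first scaled by a size factor (median of ratios, 0.945 to 1.05). After adding 0.1, log2 values entered a linear model (limma 3.58.1, R 4.3.3, moderated with a trend) on 27 libraries in 9 groups, or on 24 without control culture 2. The fit was tested on simulated data with known changes. The simulated libraries were independent and held no fraction differences, no culture effects and no library like control replicate 2, so the test does not cover these. The remaining steps used Python 3.11.15. IDs were matched to GENCODE release 44 on GRCh37 (32776 of 34464). Exons and lengths are medians over transcripts, and classes were taken by symbol. The value of 1 read was estimated from the steps of low values, with 240 nt subtracted from each transcript. At 1 to 5 reads, 83.7% to 85.1% of values were within 0.1 of a whole read. Intervals that need counts were not given.

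Deviations of same-numbered control and TPR D nuclear libraries from their group means had correlations of 0.113, 0.0277 and 0.196, so by the rule used (each above 0.1) the numbers were not taken to pair the samples. The file's column names number the libraries consecutively within each replicate, but no source says that a replicate was a batch.

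Named genes are TPR, MALAT1 and NEAT1, the 15 lowest p in each direction, the 8 lowest not yet named without control culture 2, 2 to 4 lowest of each list and class, and the 5 lowest in each direction of the tests between fractions and shRNAs. The genes to describe, the lists and these rules were chosen with earlier results of these data known. A few genes that these rules select are not reported here.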

Additional observations from a re-analysis of the deposited data

Results flagged for a closer look

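Of the genes whose nuclear level differed between the TPR shRNAs in the direct test (limma), the 5 with the lowest p in each direction are given, as TPR D minus TPR A on the log2 scale. Lower with TPR D were SLC17A7 (-2.31 ± 0.26, SE, adjusted p = 0.000151), HMOX1 (-2.68), ENSG00000227136 (-3.2), TK2 (-1.14) and NECTIN4 (-2.15). HMOX1, heme oxygenase 1 and a target of NRF2, was at 47.3, 28.9 and 58.7 FPKM in control, 78.1, 70.2 and 80.1 FPKM in TPR D and 245, 558 and 855 FPKM in TPR A nuclei. TK2, the mitochondrial thymidine kinase gene, was at 14.4, 14.9 and 11.8 FPKM in control, 8.57, 7.37 and 8.72 FPKM with TPR D and 16.9, 18.9 and 19.1 FPKM with TPR A.

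Higher with TPR D were GPAT3 (1.53), TMEM71 (1.78), SLC25A13 (0.86), SLC15A4 (1.08) and PTPMT1 (1.43). In these 5 genes TPR D against control did not pass the test (changes of -0.54 to 0.49, adjusted p = 0.46 to 0.999), and TPR A against control was lower and passed (adjusted p = 0.000803 to 0.0232). GPAT3, an enzyme gene of triglyceride synthesis, was at 13.7, 9.87 and 10.6 FPKM in control, 16, 18.8 and 13.1 FPKM with TPR D and 5.94, 5.23 and 5.15 FPKM with TPR A. PTPMT1, a mitochondrial phosphatase gene, was at 43.2, 52.7 and 37.9 FPKM with TPR D and 22.3, 15.9 and 12.3 FPKM with TPR A.

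GAGE2E was the gene whose nuclear change differed from its total change once control culture 2 was left out, by -5.67 (adjusted p = 0.00197). Its control total libraries 1 and 3 were listed at 0, so the value depends on the pseudocount, and the gene belongs to a family of near-identical copies on chromosome X that share reads. Its nuclear FPKM were 6.63, 4.58 and 10.1 in control and 4.99, 6.87 and 4.83 with TPR D, with overlapping groups.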

How the results depend on the processing

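The counts of genes that rose and fell (32 and 38) rested on the spread being shared over 27 libraries. They were 0 and 1 with only the 6 nuclear libraries in the model (594 and 680 at an unadjusted p under 0.05), and 0 and 0 with only 5 (836 and 1030), both by limma. They were 15 and 23 with a mean above 5 FPKM (10344 genes), 235 and 245 with array weights, and 14 genes rose with control culture 2 left out. Leaving out 1 nuclear library each gave 4 to 32 genes that rose and 8 to 28 that fell. The counts were 9 and 15 without TPR D replicate 1, 4 and 8 without replicate 2, 12 and 14 without replicate 3, 21 and 16 without control replicate 1, and 10 and 20 without control replicate 2. Values as deposited, quantile normalization, other pseudocounts, no filter, a filter on the 6 nuclear libraries and no trend left both counts within 1.5 times. All 70 genes kept their sign in every alternative in which they were tested. Of the 70, 9 were called in each of the 6 fits with 1 library left out and 14 in none of them.

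Library numbers in the column names run consecutively within a replicate, and each control library's deviations correlated best with those of the TPR D library of its own number (0.113, 0.0277 and 0.196, against at most 0.0947, -0.000861 and -0.0714). When the model held the replicate number as a block, 123 genes rose and 106 fell, including all 70, with 207 between the shRNAs. With the block and only the 6 nuclear libraries, 1 and 0 did so. TPR had -3.56 there and -3.51 with only 5 nuclear libraries and did not pass the threshold in either.

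Without control culture 2 (14 and 28 genes, alternatives chosen after seeing the data except the 5-library model), 29 genes rose without trend, 150 rose and 166 fell with the replicate block, and 0 and 0 did so with only 5 nuclear libraries. Leaving out 1 further library gave 1 to 6 genes that rose and 2 to 7 that fell, and each of the 5 libraries lowered both counts by over 1.5 times. The nuclear minus total test had 1 gene without culture 2. The test between shRNAs had 46 genes, 98 without culture 2 and 71 without trend. The causes were not tested. Low values are limited by depth, 1 read being 0.0165 to 0.0219 FPKM on 1 kb.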
